A study of Mus musculus with 7 samples.

Results

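Collagens, laminins, nidogens and perlecan are the structural proteins of the extracellular matrix and of basement membranes. All genes of the count table named as a collagen chain or a laminin chain were taken, with Nid1, Nid2 and Hspg2. This gave 58 of the 40873 genes analysed, of which 44 are collagen chains and 11 are laminin chains. RNA was sequenced from choroid plexus of the lateral ventricles, pooled from CD-1 embryos at E15.5, where E stands for embryonic day. The RBC group (3 libraries) had been treated 24 h earlier with washed red blood cells from the blood of an E14.5 donor litter, and the saline group (4 libraries) was the control. CD-1 is an outbred mouse stock, and both groups were wild type and carry the same batch label. The labels do not say how many embryos made up a pool. The labels call the libraries biological replicates without naming the embryos or litters behind them, so p-values measure the spread between these pools.

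Collagens are trimers of alpha chains. The fibrillar types form the cables of the stroma, and the FACIT types (fibril-associated collagens with interrupted triple helices) coat their surface. A basement membrane is a sheet of laminin and collagen IV networks that nidogens and perlecan link to each other. In the choroid plexus such a sheet lies under the secretory epithelium and another surrounds the fenestrated capillaries, with a thin fibroblast stroma between them.

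Total counts per library ran from 4393860 to 8386928, and the 58 genes held 1.15% to 1.43% of them in the RBC libraries and 1.22% to 1.31% in the saline libraries. Values of single genes are given as CPM, counts scaled to a fixed library size with TMM factors. Levels are compared between genes only as RPKM, which also divides by the exon length in the count table. Markers of choroid plexus epithelium, the labelled tissue, were abundant, with all 12 tested and a summed 19290 to 20750 CPM in the RBC libraries, against 19620 to 24910 CPM in the saline libraries. Most of that sum was Ttr, the transthyretin gene, and gene by gene 11 of the 12 had a lower mean with RBC (median log2 fold change -0.082). At an unadjusted p under 0.05, 3 were lower (4.32% of all genes were), and 3 were lower without overlap (4.63% of all genes). Of the 12, edgeR called 0 (0.0605% of all genes) and DESeq2 called 2, Aqp1 and Slc4a5 (1.64% of all genes). The part of these epithelial values in the lower member values below was not tested. Erythroid markers were higher in 3 of 9 and lower in 6, with none called. Macrophage markers were higher with RBC in 10 of 10, with sums of 355 to 527 CPM with RBC and 225 to 297 CPM with saline. All 10 had an unadjusted p under 0.05 (5.22% of all genes were higher at it), and 9 had no overlap (4.96% of all genes). Of these markers edgeR called 1, Adgre1 (adjusted p = 0.028, 0.0605% of all genes called), limma-voom 1 (0.0538%) and DESeq2 9 (1.64%). The part of the macrophage markers in the results below was not tested.

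The library RBC 3 stood apart for these genes. It had the highest CPM of the 7 libraries for 25 of the 49 tested members (51%), where it was highest for 16.7% of all tested genes. RBC 2 had the lowest CPM for 22 members (44.9%), against 17.1% of all tested genes. Fibroblast markers summed to 947, 895 and 1324 CPM in RBC 1, RBC 2 and RBC 3, and to 999 to 1054 CPM in the saline libraries, and RBC 3 was highest for 10 of the 11 tested. Mural cell markers (9 of 10 tested) summed to 385, 343 and 588 CPM in the RBC libraries and to 399 to 450.1 CPM in the saline libraries. Endothelial markers (12 of 12 tested) summed to 1081, 1001 and 1500 CPM in the RBC libraries and to 1180 to 1266 CPM in the saline libraries, and no marker of these lists was at 0 in all libraries. Neural markers (12 of 12 tested) summed to 210.3, 127 and 221 CPM in the RBC libraries and to 182.5 to 252 CPM in the saline libraries. RBC 2 was lowest for 11 of these 12 (91.7%), and 11 had a lower mean with RBC, with a median log2 fold change of -0.77. Of the neural markers, 1 was lower at an unadjusted p under 0.05 (4.32% of all genes were) and none was called. The part of these cells in the results was not tested, and in pooled tissue more cells of a type cannot be told apart from more RNA per cell. Results are therefore also given without RBC 3. Since RBC 3 was picked for its high member values, leaving it out lowers the members as a set by construction.

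**Figure D1:**
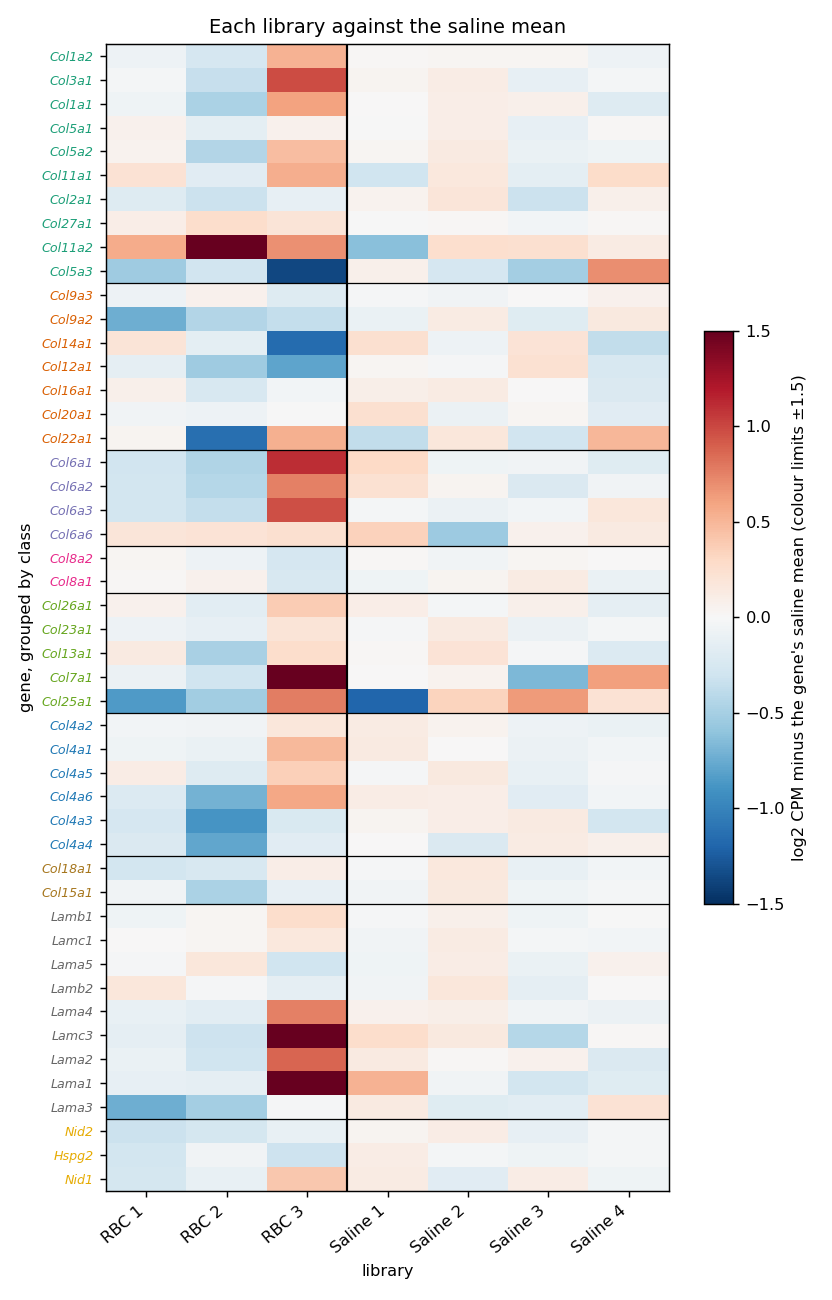
Colour shows log2 CPM of each library minus the saline mean of the gene, for 48 tested genes (down the page, grouped by class) in the 3 RBC and 4 saline libraries (across). The RBC 3 column holds the most dark red, above all for Col6a1, Col6a2, Col6a3, Col3a1, Col7a1, Lama1, Lama2, Lamc3 and Lama4, while RBC 2 is blue for most collagen chains.

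Per exon length, Col9a3 had the highest level of the 58 genes, with a mean of 298 RPKM over the 7 libraries. Col8a2 followed at 233.5 RPKM, and Col4a2, Col4a1 and Nid2 at 183, 160.2 and 154 RPKM. Col1a2 reached 105 RPKM, Col3a1 84.7 RPKM, Hspg2 80.4 RPKM, Lamb1 79.4 RPKM and Lamc1 63.4 RPKM. The ranges over libraries of Col4a2, Col4a1 and Nid2 overlapped, as did those of Col3a1, Hspg2 and Lamb1. Read within each library, Col4a2 was above Nid2 in all 7 and above Col4a1 in all but RBC 3. The order of Col3a1, Hspg2 and Lamb1 varied between libraries. The library ranges of Col9a3 (266 to 318 RPKM with RBC, 294 to 317 RPKM with saline) and Col8a2 (201 to 245 RPKM with RBC, 231 to 245 RPKM with saline) did not overlap. Summed over members, collagen IV gave 405 ± 68.2 RPKM with RBC and 390.4 ± 24.3 RPKM with saline, and fibrillar collagens 345 ± 108 RPKM with RBC and 313 ± 13.6 RPKM with saline. Here and below, errors after ± are SDs over 3 RBC or 4 saline libraries for levels and standard errors for log2 fold changes.

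**Figure D2:**
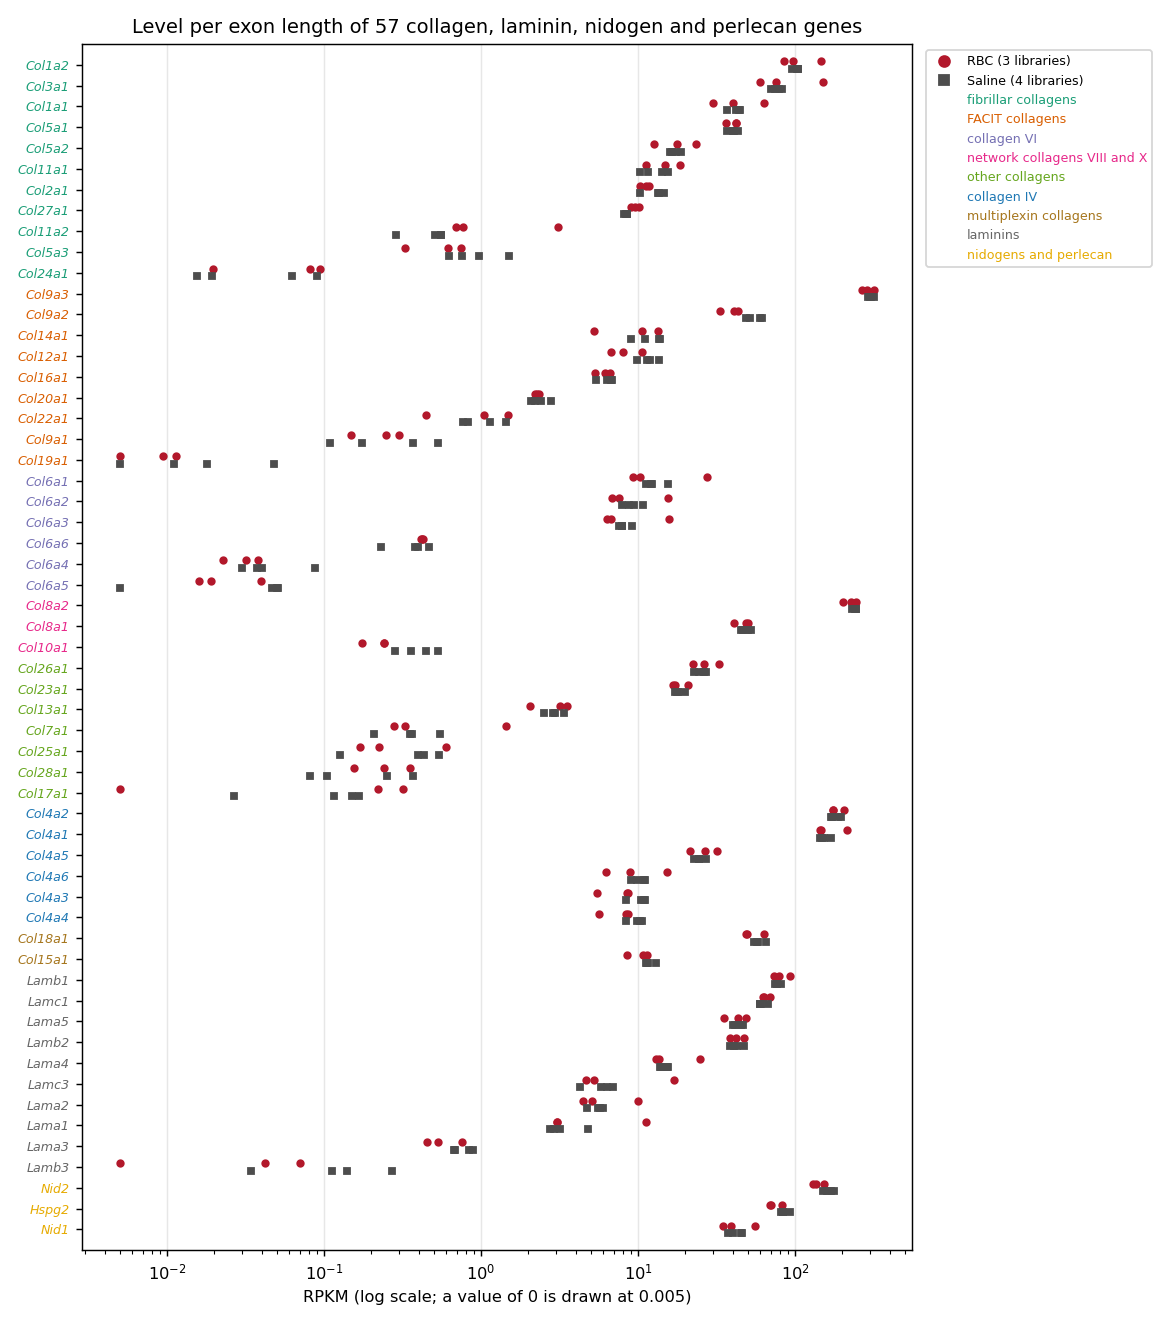
Each gene's RPKM (log axis) is drawn for the 3 RBC libraries (circles) and the 4 saline libraries (squares), with genes coloured by class and ordered by level within it. Levels span Col19a1, near 0, to Col9a3, at a mean of 298 RPKM, and the RBC points spread more widely than the saline points for Col3a1, Col6a1, Lama1 and Lamc3.

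After 24 h, no collagen, laminin, nidogen or perlecan gene differed between RBC and saline choroid plexus past the threshold, an adjusted p of 0.05 over all 14869 genes tested. Of the 58 genes, 49 passed the filter on low counts, and 0 of these were called by edgeR's quasi-likelihood test with Benjamini-Hochberg adjustment (lowest adjusted p = 0.128), in a comparison that called 9 genes in all (0.0605%), 0.0404% higher and 0.0202% lower. DESeq2 called 1 of them, Col9a2, in a fit that called 1.64% of its tested genes, and limma-voom called 0 (0.0538% of all genes). At an unadjusted p under 0.05, 8 members passed (16.3%, against 9.54% of all genes), of which 2 were higher with RBC (5.22% of all genes were) and 6 lower (4.32% of all genes were). The 8 were Col27a1 and Col11a2, which were higher, and Col9a2, Col12a1, Col4a3, Col4a4, Nid2 and Hspg2, which were lower. The 49 log2 fold changes (RBC over saline) had a median of 0.011, with 26 above 0 and 23 below, and the median over all tested genes was -3e-04. Groups did not overlap for 3 members, where 9.59% of all genes had no overlap. These were 2 higher members, Col27a1 and Col11a2 (4.96% of all genes were higher without overlap), and 1 lower member, Col9a2 (4.63% of all genes).

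How small a change the data could have hidden differed between members. The 95% interval of the fold change lay within 1.5-fold in both directions for 25 of the 49 tested members, and for 15 of the 18 members at or above 40 RPKM. The exceptions among those 18 were Col1a1, Col3a1 and Col9a2. The 9 untested members had at most 14 counts in any library.

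**Figure D3:**
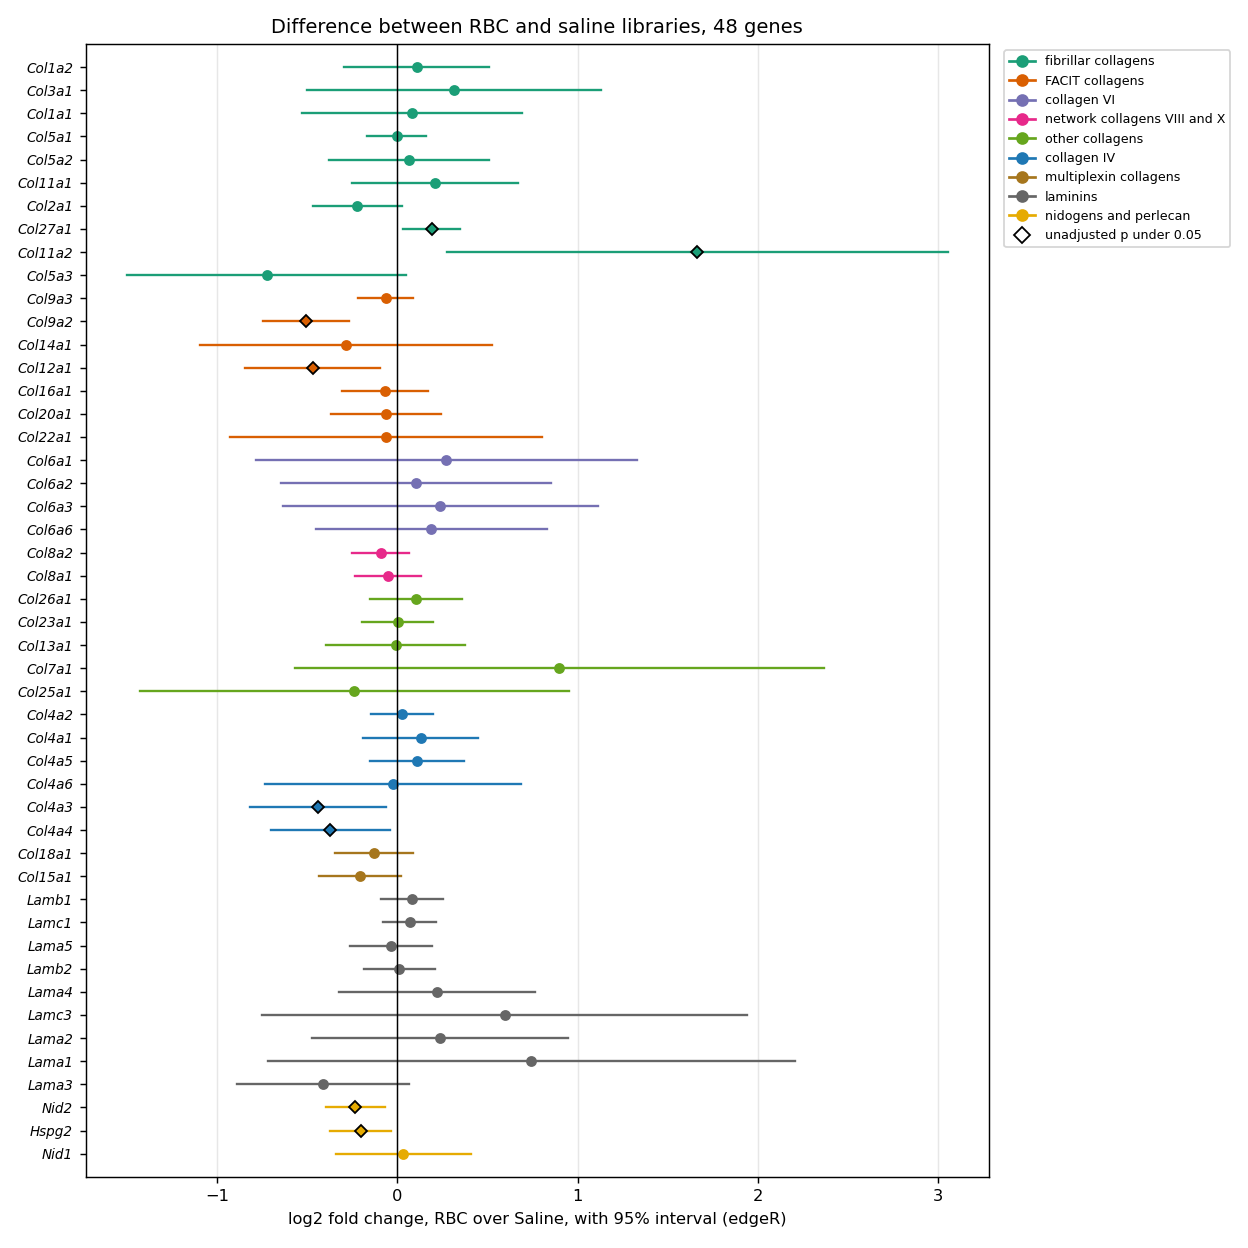
Points are edgeR log2 fold changes of RBC over saline for 48 tested genes, lines are their 95% intervals, and diamonds mark the 8 genes with an unadjusted p under 0.05. Most intervals cross 0, those of Col11a2, Col7a1 and Lama1 are wide, and Col9a2 lies furthest below 0 relative to the width of its interval.

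The abundant fibrillar chains were not called, and Col1a1, Col1a2 and Col3a1 spread more widely among the RBC than among the saline libraries. Of 10 tested fibrillar genes 7 had a higher and 3 a lower mean with RBC, none was called, 2 passed an unadjusted p of 0.05, and the median log2 fold change was 0.094. Col1a2, the alpha 2 chain of collagen I, had 505, 446 and 764 CPM in the RBC libraries and 536, 542, 543 and 501 CPM in the saline libraries. Col1a1, the alpha 1 chain, had 237, 178 and 376 CPM in the RBC libraries and 248, 266, 262 and 218 CPM in the saline libraries. Both chains were highest in RBC 3 and lowest in RBC 2, with the saline libraries between them. Col1a2 gave a log2 fold change of 0.11 ± 0.17 (edgeR adjusted p = 0.926) and Col1a1 one of 0.082 ± 0.25 (edgeR adjusted p = 0.96). The per-length ratio of Col1a1 to Col1a2 RNA was 0.4 ± 0.0434 with RBC and 0.412 ± 0.0227 with saline. The collagen I trimer holds more alpha 1 than alpha 2 chains, but a ratio of RNA does not measure protein chains. Col3a1, whose chain forms the collagen III of compliant stroma, had 419, 335 and 838 CPM in the RBC libraries and 437, 462, 392 and 417 CPM in the saline libraries. RBC 3 had by far the highest level, and RBC 1 and RBC 2 lay within or below the saline range. Its log2 fold change was 0.31 ± 0.33 (edgeR adjusted p = 0.868) with all libraries and -0.18 without RBC 3.

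Collagen V, which sets the diameter of collagen I fibrils, was even across libraries for its alpha 1 chain: Col5a1 had 356, 309 and 358 CPM in the RBC libraries and 341, 367, 315 and 347 CPM in the saline libraries. Its 95% interval ran from 0.890 to 1.12-fold (edgeR adjusted p = 0.994). Col5a2 had 118, 83.2 and 156 CPM in the RBC libraries and 116, 124, 105 and 108 CPM in the saline libraries, with RBC 2 below and RBC 3 above the saline range. Col11a1, a minor fibril chain, had 120.3, 91.7 and 151 CPM in the RBC libraries and 84.2, 116, 93.7 and 126 CPM in the saline libraries and a log2 fold change of 0.21 ± 0.20 (edgeR adjusted p = 0.839).

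The 2 fibrillar genes with an unadjusted p under 0.05 were both low or moderate in level. Col27a1, a fibrillar collagen known from cartilage, had 77.1, 86.7 and 82.8 CPM in the RBC libraries and 72.0, 72.8, 70.2 and 73.2 CPM in the saline libraries. All 3 RBC libraries lay above the 4 saline libraries, by a fold change of 1.14 (95% interval 1.02 to 1.27, edgeR adjusted p = 0.372). Col11a2, another fibrillar chain best known from cartilage, had 5.40, 23.9 and 5.97 CPM in the RBC libraries and 2.22, 4.33, 4.31 and 3.94 CPM in the saline libraries. RBC 2 was well above all other libraries, and the other 2 RBC libraries were just above the highest saline library. The log2 fold change was 1.67 ± 0.59 (edgeR adjusted p = 0.394), and 0.62 without RBC 2. Col2a1, the main collagen of cartilage, ran the other way, with 65.4, 59.4 and 68.3 CPM in the RBC libraries and 77.6, 84.9, 59.8 and 78.8 CPM in the saline libraries and overlapping groups (edgeR adjusted p = 0.586). Cartilage and bone markers, of which 5 of 12 were tested, summed to 10.7 to 20.1 CPM in the RBC libraries and to 12.0 to 16.3 CPM in the saline libraries, with Bglap at 0 in all 7, and their part was not tested. Acan, the core protein of cartilage aggrecan, had at most 0.362 CPM in an RBC library and 0.963 CPM in a saline library.

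The FACIT collagens all had lower means with RBC, and Col9a2 among them had the lowest p of the 58 genes. All 7 tested FACIT genes had a log2 fold change below 0, from -0.51 to -0.063 with a median of -0.071. Of these, 2 of 7, Col9a2 and Col12a1, had an unadjusted p under 0.05 (4.32% of all genes were lower at it). The 95% intervals of the others included 0, and Col14a1, Col16a1, Col20a1 and Col22a1 changed sign in at least 1 of the alternative settings. Col9a2 (GRCm39 chr4:120896763-120912522), the alpha 2 chain of collagen IX, had 91.4, 112 and 118 CPM in the RBC libraries and 142, 165, 134 and 169 CPM in the saline libraries. Every RBC library was below every saline library. The level with RBC was 0.704-fold that with saline (95% interval 0.597 to 0.831), a log2 fold change of -0.51 ± 0.11 with an edgeR adjusted p of 0.128, and the DESeq2 adjusted p was 0.00372. Without RBC 3 the log2 fold change was -0.58 and the edgeR adjusted p 0.0316, in a fit that called 1.86% of 15175 genes. RBC 3 was left out for its high member values and was the highest RBC library for Col9a2. The lower estimate in that fit was therefore fixed in advance and is no separate evidence. Over all settings tried its adjusted p ran from 0.00372 to 0.314, below 0.05 in 3 of 17. These were DESeq2, edgeR without a count filter and edgeR without RBC 3.

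The chains of collagen IX stood at very different levels. A collagen IX molecule joins an alpha 1, an alpha 2 and an alpha 3 chain. Col9a3, the alpha 3 chain, had 889, 981 and 822 CPM in the RBC libraries and 925, 907, 943 and 980.2 CPM in the saline libraries. These groups overlapped, and the 95% interval of the fold change ran from 0.860 to 1.06 (edgeR adjusted p = 0.866). Per length, Col9a3 stood at 290.5 ± 25.8 RPKM with RBC and 304 ± 10.1 RPKM with saline, Col9a2 at 39.1 ± 5.15 RPKM with RBC and 55.5 ± 6.18 RPKM with saline, and Col9a1 at 0.232 ± 0.0769 RPKM with RBC and 0.295 ± 0.191 RPKM with saline. Col9a1 did not pass the filter on low counts, so RNA of the alpha 1 chain was close to the limit of detection while that of the alpha 3 chain was the highest of the 58 genes. Whether Col9a2 and Col9a3 differed in their response was not tested.

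Col12a1 and Col14a1 encode FACIT chains that sit on collagen I fibrils in dense connective tissue. Col12a1 had 149, 114 and 95.1 CPM in the RBC libraries and 168, 162, 193 and 139 CPM in the saline libraries. RBC 2 and RBC 3 were below all saline libraries and RBC 1 was above the lowest of them. Col12a1 had a fold change of 0.721 (95% interval 0.557 to 0.935, edgeR adjusted p = 0.356). Col14a1 had 95.3, 75.2 and 37.5 CPM in the RBC libraries and 98.9, 78.9, 96.5 and 64.4 CPM in the saline libraries, with RBC 3 the lowest library, and a log2 fold change of -0.28 ± 0.33 (edgeR adjusted p = 0.881) that was 0.0045 without RBC 3. Of the rest, Col16a1, Col20a1 and Col22a1 had mean levels of 6.2, 2.32 and 1.02 RPKM over all libraries and log2 fold changes between -0.071 and -0.063.

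**Figure D4:**
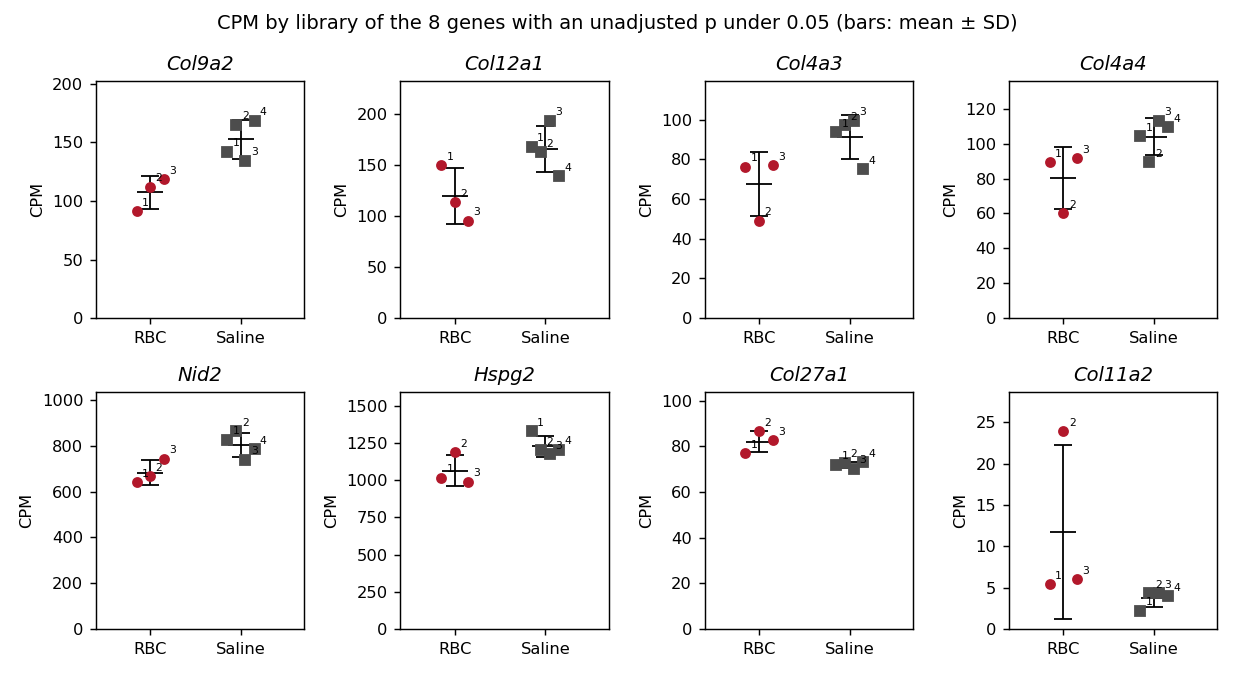
CPM in each library, numbered by replicate, of the 8 genes with an unadjusted p under 0.05, with RBC left of saline and bars for the mean ± SD over 3 and 4 libraries. The groups are apart for Col9a2, Col27a1 and Col11a2, and overlap in the other 5.

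Collagen VI, the beaded filament collagen that surrounds stromal cells, had its 3 main chains high in RBC 3 alone. Col6a1 had 41.2, 36.9 and 109 CPM in the RBC libraries and 62.1, 48.1, 48.8 and 44.5 CPM in the saline libraries. Col6a2 had 45.3, 40.8 and 93.2 CPM in the RBC libraries and 64.3, 56.3, 47.4 and 53.0 CPM in the saline libraries, and Col6a3 had 72.8, 68.8 and 172 CPM in the RBC libraries and 86.0, 82.6, 85.3 and 99.4 CPM in the saline libraries. In each of these 3 chains RBC 1 and RBC 2 lay below all 4 saline libraries while RBC 3 lay above them. All 4 tested collagen VI genes had a log2 fold change above 0, with a median of 0.21 and none at an unadjusted p under 0.05 (lowest edgeR adjusted p = 0.921). Without RBC 3 the median was -0.33, and 3 of the 4 genes were lower at an unadjusted p under 0.05 (5.9% of all genes were). Because RBC 3 was left out for its high member values, this shift was partly fixed in advance. Col6a6, the fourth, averaged 0.420 ± 0.00808 RPKM with RBC and 0.368 ± 0.0984 RPKM with saline, and Col6a4 and Col6a5 had too few counts to test.

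The network collagens of type VIII, sheet-forming collagens known from Descemet's membrane of the cornea and from vessel walls, were among the highest of all members and were not called. Col8a2 had 1100.0, 1024 and 901 CPM in the RBC libraries and 1091, 1034, 1096 and 1080.0 CPM in the saline libraries. Col8a1 had 251, 258 and 208 CPM in the RBC libraries and 237, 255, 268 and 231 CPM in the saline libraries. RBC 3 was the lowest library for both chains, and the other 2 RBC libraries lay within or close to the saline range. The 95% intervals of the fold change were 0.840 to 1.05 for Col8a2 (edgeR adjusted p = 0.777) and 0.848 to 1.10 for Col8a1 (edgeR adjusted p = 0.926). The per-length ratio of Col8a1 to Col8a2 was 0.208 ± 0.0113 with RBC and 0.202 ± 0.0154 with saline. Col10a1, the hypertrophic cartilage collagen of the same family, had 0.684 ± 0.122 CPM with RBC and 1.27 ± 0.34 CPM with saline and was not tested.

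The remaining collagens were low, apart from Col26a1 and Col23a1. Col26a1 stood at 27.1 ± 5.17 RPKM with RBC and 25.2 ± 1.87 RPKM with saline (edgeR adjusted p = 0.872). Col23a1, a transmembrane collagen, stood at 18.3 ± 2.28 RPKM with RBC and 18.2 ± 1.24 RPKM with saline, with a 95% interval of the fold change from 0.872 to 1.15 (edgeR adjusted p = 0.998). Col7a1, the anchoring fibril collagen of skin, had 3.01, 2.57 and 13.4 CPM in the RBC libraries and 3.25, 3.37, 1.91 and 5.10 CPM in the saline libraries, so that its log2 fold change of 0.90 ± 0.63 (edgeR adjusted p = 0.752) came from RBC 3 and was -0.23 without it. Col13a1 and Col25a1, transmembrane collagens, had mean levels of 2.93 and 0.356 RPKM over all libraries, with edgeR adjusted p values of 0.995 and 0.947. Keratins and other markers of skin and cornea epithelium, of which 2 of 7 were tested, summed to 14.3 to 19.2 CPM with RBC and to 13.7 to 21.9 CPM with saline.

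Collagen IV, the network collagen of basement membranes, was dominated by its common chains Col4a1 and Col4a2, which were close in both groups, while Col4a3 and Col4a4 were lower with RBC at an unadjusted p only. Of the summed collagen IV RPKM, Col4a2 made up 46 ± 3.47% with RBC and 46.4 ± 0.692% with saline, and Col4a1 41.3 ± 2.88% with RBC and 39.5 ± 0.823% with saline. The 6 genes lie head to head in 3 pairs. In the count table (GRCm39) the 5′ ends of Col4a3 and Col4a4 are 77 bases apart on chromosome 1 and those of Col4a5 and Col4a6 are 1276 bases apart on chromosome X, while Col4a1 and Col4a2 overlap on chromosome 8. The promoter windows of RefSeq (GRCm38.p6, 250 bases before to 50 after each start) are shown for Col9a2, which had the lowest p of the members, for Col4a1 and Col4a2, whose windows overlap, and for Col4a4, a collagen IV chain with an unadjusted p under 0.05. A window was found for 42 of the 58 genes. Capitals mark GGGCGG (the GC box of Sp1) and CCAAT on either strand, and TATAAA was also searched. The windows are chr8:11312777-11313076 on the minus strand for Col4a1, chr8:11312555-11312854 on the plus strand for Col4a2, chr1:82586800-82587099 on the minus strand for Col4a4, and chr4:121039316-121039615 on the plus strand for Col9a2.
Col4a1: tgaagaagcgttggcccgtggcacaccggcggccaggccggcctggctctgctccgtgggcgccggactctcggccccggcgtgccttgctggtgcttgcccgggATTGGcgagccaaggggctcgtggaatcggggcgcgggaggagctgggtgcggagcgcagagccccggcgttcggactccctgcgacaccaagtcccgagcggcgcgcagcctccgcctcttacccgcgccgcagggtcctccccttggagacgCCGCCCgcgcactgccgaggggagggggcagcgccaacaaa
Col4a2: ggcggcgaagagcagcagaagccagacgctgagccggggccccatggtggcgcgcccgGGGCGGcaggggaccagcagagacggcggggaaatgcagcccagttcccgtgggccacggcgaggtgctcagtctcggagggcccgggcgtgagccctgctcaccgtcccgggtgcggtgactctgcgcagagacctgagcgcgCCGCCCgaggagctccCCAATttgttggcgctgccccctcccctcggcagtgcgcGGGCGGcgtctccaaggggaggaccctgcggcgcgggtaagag
Col4a4: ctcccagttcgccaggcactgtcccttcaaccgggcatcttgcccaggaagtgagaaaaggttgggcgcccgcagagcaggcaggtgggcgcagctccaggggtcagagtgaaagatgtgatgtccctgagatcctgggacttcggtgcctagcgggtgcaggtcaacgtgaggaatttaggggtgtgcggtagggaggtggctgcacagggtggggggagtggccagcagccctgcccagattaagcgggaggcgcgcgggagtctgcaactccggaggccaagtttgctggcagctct
Col9a2: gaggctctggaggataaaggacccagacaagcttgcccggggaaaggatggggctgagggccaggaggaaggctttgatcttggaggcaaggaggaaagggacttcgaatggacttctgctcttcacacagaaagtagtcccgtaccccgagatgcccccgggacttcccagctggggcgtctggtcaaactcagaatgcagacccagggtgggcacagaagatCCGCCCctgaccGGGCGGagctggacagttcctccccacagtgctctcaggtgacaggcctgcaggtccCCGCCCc
The windows of Col4a1 and Col4a2 share 78 bases (chr8:11312777-11312854), and 1 GGGCGG match in both is the same site. Col4a1 held 1 CCAAT and 1 GGGCGG, Col4a2 1 CCAAT and 3 GGGCGG, Col9a2 3 GGGCGG, and the Col4a4 window none of the 3 motifs. Over all 32851 windows of the same length, 37.4% held CCAAT, 35.7% GGGCGG and 13.6% TATAAA, and over the 46 windows of members the counts were 15, 28 and 5. The windows of Col4a1 and Col4a2 were rich in G and C, at 74% and 73.7%, against 63.3% for Col4a4, 61.7% for Col9a2 and a median of 52.7% over all windows.

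Col4a1 had 1206, 1179 and 1769 CPM in the RBC libraries and 1385, 1265, 1190.0 and 1225 CPM in the saline libraries. Col4a2, the partner chain of the same trimer, had 1132, 1128 and 1314 CPM in the RBC libraries and 1267, 1214, 1112 and 1087 CPM in the saline libraries. For both, RBC 3 was the highest library and RBC 1 and RBC 2 lay within or just below the saline range. The 95% interval of the fold change was 0.904 to 1.15 for Col4a2 (edgeR adjusted p = 0.958) and 0.876 to 1.36 for Col4a1 (edgeR adjusted p = 0.869). The per-length ratio of Col4a1 to Col4a2 was 0.835, 0.82 and 1.06 in the RBC libraries and 0.858, 0.817, 0.84 and 0.885 in the saline libraries. Of the exon bases of Col4a1, 13.1% are also covered by genes on the opposite strand, the largest such share among members, and the labels do not say whether counting used the strand.

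Col4a3 and Col4a4, chains of the specialised collagen IV trimer known from kidney glomeruli, both had a lower mean with RBC. Col4a3 had 76.3, 49.0 and 77.1 CPM in the RBC libraries and 93.5, 97.2, 99.5 and 75.0 CPM in the saline libraries. Col4a4 had 89.3, 60.0 and 91.8 CPM in the RBC libraries and 104, 89.2, 113 and 109 CPM in the saline libraries. RBC 2 was the lowest library for both, and RBC 1 and RBC 3 lay at the low end of the saline range. Col4a3 had a log2 fold change of -0.44 ± 0.17 (edgeR adjusted p = 0.411) and Col4a4 one of -0.37 ± 0.15 (edgeR adjusted p = 0.431). Their share of summed collagen IV RPKM was 1.86 ± 0.378% and 1.87 ± 0.338% with RBC, against 2.61 ± 0.315% and 2.52 ± 0.365% with saline. Col4a5, a further chain of that trimer, had 175, 141 and 208 CPM in the RBC libraries and 160.0, 179, 149.8 and 159.6 CPM in the saline libraries (edgeR adjusted p = 0.865). Col4a6 had 61.6, 43.4 and 106 CPM in the RBC libraries and 76.8, 76.0, 63.0 and 68.8 CPM in the saline libraries, with RBC 3 highest and RBC 2 lowest (edgeR adjusted p = 0.992). Without RBC 3 all 6 collagen IV genes were lower (50.9% of all genes were). The median log2 fold change was -0.26, against 4e-04 with RBC 3. Of the 6, 3 were lower at an unadjusted p under 0.05 (5.9% of all genes were) and 0 were called (1.86% of all genes). This shift too was partly fixed in advance by the choice of RBC 3.

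The multiplexins, collagens XV and XVIII of the outer face of basement membranes, had lower means with RBC and did not pass the test. Col18a1, whose C-terminal fragment is endostatin, had 372, 379 and 482 CPM in the RBC libraries and 444, 503, 416 and 437 CPM in the saline libraries. RBC 1 and RBC 2 were below all saline libraries and RBC 3 was within them. The log2 fold change was -0.13 ± 0.10 (edgeR adjusted p = 0.769), and -0.26 without RBC 3. Col15a1 had 63.7, 47.5 and 60.3 CPM in the RBC libraries and 63.7, 72.8, 63.0 and 64.6 CPM in the saline libraries and a log2 fold change of -0.21 ± 0.10 (edgeR adjusted p = 0.584).

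Laminins are trimers of an alpha, a beta and a gamma chain. The abundant chains were Lama5, Lamb1, Lamb2 and Lamc1, and none of the 10 tested laminin genes was called or had an unadjusted p under 0.05 (lowest edgeR adjusted p = 0.609). Lama5, the alpha chain of epithelial and mature vessel basement membranes, had 490.1, 558 and 401 CPM in the RBC libraries and 472, 533, 459.6 and 516 CPM in the saline libraries. Lamb1 had 432, 463 and 543 CPM in the RBC libraries and 449, 479, 434 and 450.5 CPM in the saline libraries, and Lamb2, the other main beta chain, had 267, 234 and 215 CPM in the RBC libraries and 228, 266, 216 and 238 CPM in the saline libraries. Lamc1, the gamma chain of most laminins, had 477, 482 and 529 CPM in the RBC libraries and 456, 515, 464 and 459 CPM in the saline libraries. In each of these 4 genes the groups overlapped. The 95% intervals of the fold change were 0.834 to 1.14 for Lama5, 0.939 to 1.19 for Lamb1, 0.880 to 1.15 for Lamb2 and 0.946 to 1.16 for Lamc1, with edgeR adjusted p values of 0.958, 0.841, 0.989 and 0.852.

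The alpha chain mix was 59.6 ± 14.6% Lama5, 23.2 ± 6.16% Lama4, 8.82 ± 3.06% Lama2 and 7.6 ± 5.35% Lama1 of summed alpha chain RPKM with RBC, against 64.1 ± 2.72%, 21.6 ± 0.898%, 8.14 ± 0.947% and 5.03 ± 1.32% with saline. The wide RBC errors came from RBC 3, in which Lama5 was 42.9% and Lama1 13.8% of the sum, where RBC 1 and RBC 2 had 66% and 69.9% Lama5. Lama4, the alpha chain of endothelial basement membranes, had 81.7, 78.8 and 149.9 CPM in the RBC libraries and 92.2, 93.7, 84.9 and 82.9 CPM in the saline libraries. Lama2, the alpha chain of muscle and mural cells, had 60.9, 53.1 and 119.7 CPM in the RBC libraries and 71.7, 65.8, 68.2 and 56.3 CPM in the saline libraries. Lama1, the alpha chain of early embryonic and pial basement membranes, had 30.8, 30.4 and 114 CPM in the RBC libraries and 48.0, 32.1, 27.5 and 29.4 CPM in the saline libraries. RBC 3 was the highest library for all 3, and RBC 1 and RBC 2 lay within or below the saline range. Their log2 fold changes of 0.22 ± 0.23, 0.24 ± 0.29 and 0.74 ± 0.58 (edgeR adjusted p = 0.864, 0.891 and 0.797) were -0.14, -0.20 and -0.17 without RBC 3. Lamc3, a gamma chain of the pial surface, was also highest in RBC 3, with 44.3, 39.3 and 143 CPM in the RBC libraries and 58.5, 54.1, 36.4 and 49.6 CPM in the saline libraries.

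Lama3 and Lamb3, an alpha and a beta chain known from stratified epithelia, were low. Lama3 averaged 0.582 ± 0.159 RPKM with RBC and 0.773 ± 0.112 RPKM with saline (edgeR adjusted p = 0.609). Lamb3 had 0.161 ± 0.152 CPM with RBC and 0.596 ± 0.42 CPM with saline and was not tested. Within the beta chains, Lamb1 made up 65.7 ± 4.96% of summed RPKM with RBC and 64.7 ± 1.12% with saline.

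Nid2 and Hspg2, linkers of the laminin and collagen IV networks, had lower means with RBC at an unadjusted p only, and Nid1 did not. Nid2 had 640.3, 668 and 743 CPM in the RBC libraries and 827, 864, 739.8 and 785 CPM in the saline libraries. RBC 1 and RBC 2 were below all saline libraries and RBC 3 was just above the lowest of them. The fold change was 0.850 (95% interval 0.759 to 0.952, edgeR adjusted p = 0.26). Hspg2, the gene of the heparan sulfate proteoglycan perlecan, had 1016, 1187 and 991 CPM in the RBC libraries and 1329, 1200.0, 1176 and 1204 CPM in the saline libraries, a fold change of 0.867 (95% interval 0.772 to 0.975, edgeR adjusted p = 0.372). RBC 1 and RBC 3 were below all saline libraries and RBC 2 was within them. Nid1 had 208, 232 and 333 CPM in the RBC libraries and 273, 223, 271 and 239 CPM in the saline libraries, with RBC 3 the highest library and RBC 1 the lowest (edgeR adjusted p = 0.979). The per-length ratio of Nid1 to Nid2 was 0.306 ± 0.0531 with RBC and 0.257 ± 0.0374 with saline. Summed over the 3 genes, the level was 237, 258 and 277 RPKM in the RBC libraries and 307, 298, 279 and 284 RPKM in the saline libraries. Of the exon bases of Nid2, 7.9% are shared with Rtraf on the opposite strand.

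Read by compartment, basement membrane genes and the other collagens both had a median near 0. The 21 tested basement membrane genes had 12 higher and 9 lower means with RBC and a median log2 fold change of 0.026. At an unadjusted p under 0.05 were 4 of them, all lower (4.32% of all genes were lower). This median joins classes that differed, with 0.15 for laminins, 4e-04 for collagen IV, -0.17 for multiplexins and -0.21 for nidogens and perlecan. The 28 other tested collagens had 14 higher and 14 lower means and a median of -0.0016. Of these, 2 were higher and 2 lower at an unadjusted p under 0.05 (5.22% and 4.32% of all genes were). Their class medians differed too, with 0.094 for fibrillar collagens, -0.071 for FACIT collagens and 0.21 for collagen VI. Summed RPKM of the basement membrane genes was 999.6 ± 116 with RBC and 1010 ± 48.9 with saline, and that of the other collagens 1060 ± 88.5 with RBC and 1073 ± 4.84 with saline. Without RBC 3, 17 of 21 basement membrane genes and 23 of 29 other collagens were lower (50.9% of all genes were). Their medians in that fit were -0.17 and -0.16.

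Without RBC 3, most members were lower with RBC. As RBC 3 was left out for its high member values, part of this shift was fixed in advance. The shares over all genes are given as background and do not test the members. In RBC 1 and RBC 2 against the 4 saline libraries, 40 of 50 tested members (80%) had a log2 fold change below 0, where 50.9% of all genes did, and the median was -0.16 against -0.0041 over all genes. Of the 49 members in both fits, 19 turned from higher to lower and 3 from lower to higher. At an unadjusted p under 0.05, 12 members were lower (5.9% of all genes were) and 3 higher (7.49% of all genes were), and edgeR called 1, Col9a2 (1.86% of all genes were called). Nid2 came next, with a log2 fold change of -0.30 and an edgeR adjusted p of 0.0667. Fibroblast, mural and endothelial markers also had lower means in this fit, in 8 of 11, 8 of 9 and 11 of 12 tested genes, with median log2 fold changes of -0.087, -0.27 and -0.25, and their part in the lower member values was not tested. Choroid plexus epithelium and neural markers were lower in 10 of 12 and 11 of 12, with medians of -0.073 and -1.05. Macrophage markers were higher in 10 of 10, with a median of 0.92. In this fit edgeR called 5 macrophage markers and 1 each of the endothelial, epithelial and neural markers (1.86% of all genes were called). The part of these lists was not tested either. The other RBC libraries moved the members less and the other way. Without RBC 2, 32 of 51 tested members were higher and 19 lower, with a median of 0.088, and without RBC 1, 28 were higher and 23 lower, with a median of 0.066, and edgeR called 0 in both.

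**Figure D5:**
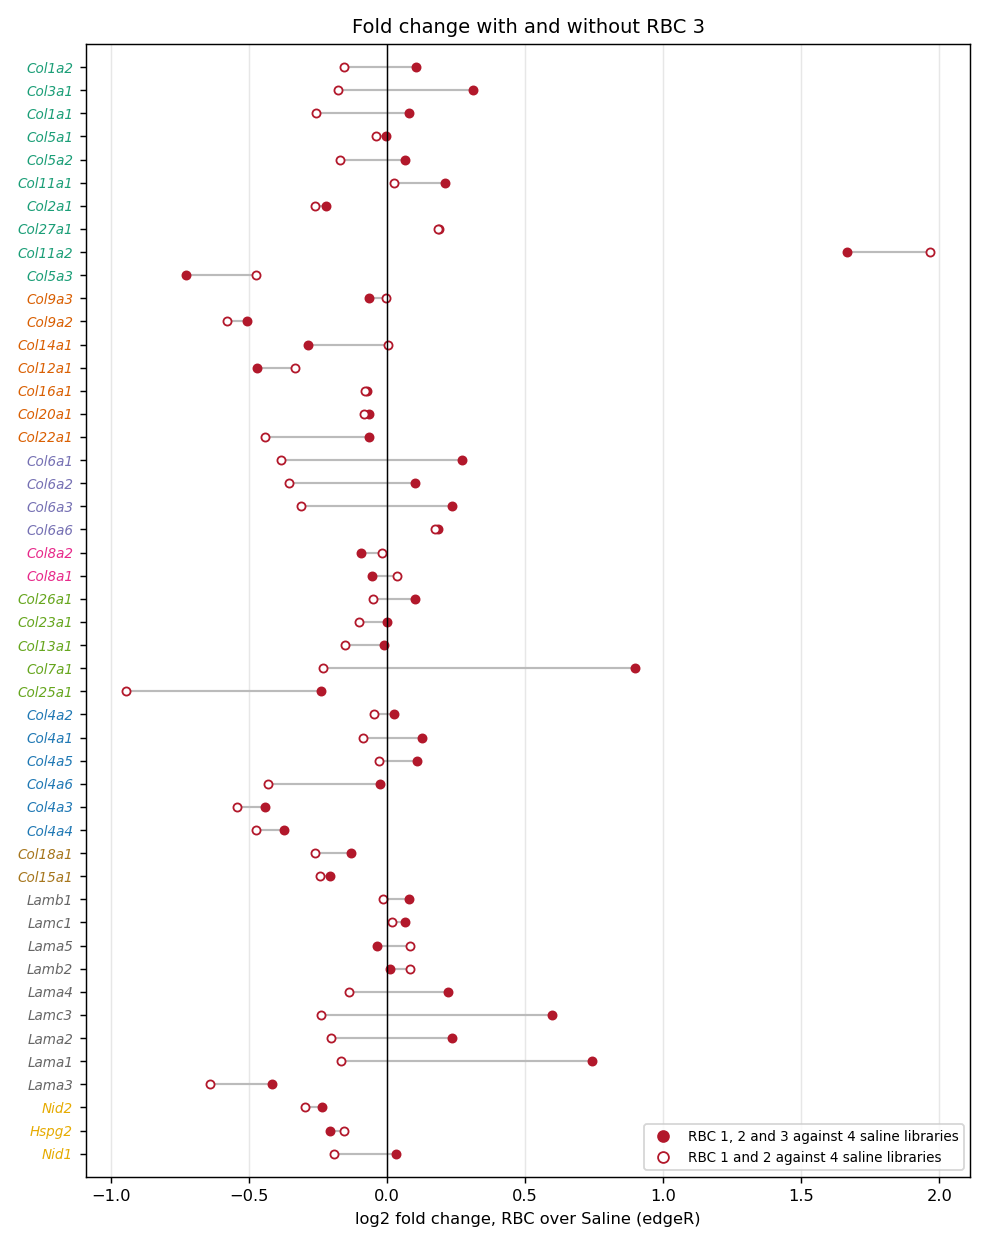
Filled points are edgeR log2 fold changes of RBC over saline with all 3 RBC libraries and open points those with RBC 1 and RBC 2 only, for 48 tested genes. Open points lie left of 0 for most genes, and 19 genes pass from the right to the left of 0.

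Genes that make, bind or surround these proteins were read beside them from 4 lists, and edgeR called 0 members of each (0.0605% of all genes were called). Without RBC 3 it called 7 of them (1.86% of all genes were called), which were Loxl3 and Pcolce2 of collagen processing, the receptor gene Itgb4, Npnt and Egfl6 of the basement membrane partners, and Postn and Mfap4 of the interstitial partners. Over all genes, 5.22% were higher and 4.32% lower at an unadjusted p under 0.05, and DESeq2 called 1.64%. Of 31 tested genes of collagen processing, 12 were higher and 19 lower, with 3 in each direction at an unadjusted p under 0.05, 0 called by DESeq2 or limma-voom, and a median log2 fold change of -0.018. P3h2, a prolyl 3-hydroxylase that acts on collagen IV, had 12.2, 9.83 and 13.8 CPM in the RBC libraries and 19.4, 16.0, 17.3 and 15.8 CPM in the saline libraries, with no overlap (edgeR adjusted p = 0.213). Tll1, a tolloid-like protease that trims procollagen, had 64.7, 59.3 and 80.4 CPM in the RBC libraries and 103, 82.8, 118 and 81.3 CPM in the saline libraries, again with all RBC libraries below (edgeR adjusted p = 0.259). Serpinh1, the collagen chaperone, named for its level, averaged 1409 ± 109.5 CPM with RBC and 1415 ± 164 CPM with saline (edgeR adjusted p = 0.994).

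Of 14 tested receptors 7 were higher and 7 lower, with 2 higher at an unadjusted p under 0.05 and 0 called by DESeq2 or limma-voom. These 2 were Itgb4, the beta subunit of the hemidesmosome integrin, at 22.7, 28.4 and 17.4 CPM in the RBC libraries and 18.0, 12.2, 11.7 and 14.1 CPM in the saline libraries (edgeR adjusted p = 0.185), and Itga3, a laminin-binding integrin subunit (edgeR adjusted p = 0.49). RBC 3 overlapped the saline range for Itgb4 and RBC 1 and RBC 2 were above it. Of 15 tested basement membrane partners (17 listed), 6 were higher and 9 lower, with 4 higher and 2 lower at an unadjusted p under 0.05 (5.22% and 4.32% of all genes were), 1 called by DESeq2 (1.64% of all genes) and 0 by limma-voom. Npnt, the integrin ligand nephronectin, had 916, 1062 and 684 CPM in the RBC libraries and 589, 676, 688 and 695 CPM in the saline libraries (edgeR adjusted p = 0.291, DESeq2 adjusted p = 0.0332). RBC 1 and RBC 2 were above all saline libraries and RBC 3 was within them. Egfl6, a basement membrane protein of low level here, had 3.77, 9.53 and 1.45 CPM in the RBC libraries and 1.18, 1.60, 2.27 and 1.39 CPM in the saline libraries (edgeR adjusted p = 0.334).

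Of 17 tested interstitial matrix partners (19 listed), 6 were higher and 11 lower, with 4 lower at an unadjusted p under 0.05 (4.32% of all genes were), 2 called by DESeq2 (1.64% of all genes) and 0 by limma-voom. Fbn1, the microfibril protein fibrillin 1, had 597, 561 and 582 CPM in the RBC libraries and 944, 722, 949 and 686 CPM in the saline libraries. Every RBC library was below every saline library, at a fold change of 0.702 (95% interval 0.583 to 0.845, edgeR adjusted p = 0.142, DESeq2 adjusted p = 0.00188). Postn, the matricellular protein periostin, had 284, 258 and 322 CPM in the RBC libraries and 362, 349.8, 379 and 346 CPM in the saline libraries, also without overlap and with a fold change of 0.802 (95% interval 0.712 to 0.903, edgeR adjusted p = 0.141, DESeq2 adjusted p = 0.0157). Without RBC 3, 16 of these 17 partners were lower (50.9% of all genes were). RBC 3 was the highest library for 9 of the 17, so leaving it out lowers them in part by construction. Dcn and Lum of this list are also among the fibroblast markers.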

How the data were processed

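The authors deposited a single table with raw counts of reads for each gene and library, and its columns of positions and exon lengths are those that featureCounts writes, per the file headers. The tools cutadapt 2.5 and STAR 2.6.1b, counting by featureCounts 2.0.6 and the build GRCm39 are listed in the submitters' processing notes, and the labels name poly(A) enrichment and a directional library kit. The labels and headers give no strand or multi-mapping setting, so counts of members whose exons overlap genes on the opposite strand are uncertain (6 share more than 5% of their exon bases, Col4a1 the most). Lines of 6 genes are broken in the table. These genes were left out, and the 6 continuation lines, which name no gene, hold 0.107% of all counts.

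Counts were tested with edgeR 4.0.16 (TMM, filterByExpr, quasi-likelihood F test with robust estimation, two-sided) under R 4.3.3 on all 7 libraries, with Benjamini-Hochberg adjustment over the 14869 genes tested and a threshold of 0.05. The biological coefficient of variation was 13.7%. A count of 3 corresponds to 0.358 CPM in the deepest and 0.683 CPM in the shallowest library. Standard errors and 95% intervals come from the F statistic. No 2 libraries of a group agreed within sampling noise (chi-square per degree of freedom of 3.6 to 10.7). Alternatives were DESeq2 1.42.0, voom of limma 3.58.1, other normalizations and count filters, no robust estimation, a block by replicate number, each library left out, and RBC 2 and Saline 4 left out together. RPKM used TMM library sizes.

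The members, classes, lists and alternatives were chosen with earlier results of these data known. The rule for named members took, per class, those past the threshold, the 4 highest in RPKM, the lowest p and those without overlap at an unadjusted p under 0.05, with a fixed set of common chains, and 2 genes per list by lowest p. The values of 1 tested member are not reported here singly. Any other member or list gene named was picked with its values in view. RefSeq windows were matched by symbol on GRCm38.p6 and no coordinates were converted. Figures were drawn with matplotlib 3.10.9.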

Additional observations from a re-analysis of the deposited data

Results flagged for a closer look

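In 3 of 59 sets of 4 saline values (CPM of single members and summed RPKM of classes), 1 library lay far from the other 3, and chance alone flags about 1 group in 20. Col1a2, a collagen I chain, was at 501 CPM in Saline 4, where the other saline libraries had 536 to 543 CPM. Col15a1, a multiplexin collagen, was at 72.8 CPM in Saline 2, where the others had 63.0 to 64.6 CPM. Lamc1, the common laminin gamma chain, was at 515 CPM in Saline 2, where the others had 456 to 464 CPM. The RBC group, with 3 libraries, was too small for this check, so the high values of RBC 3 were not assessed by it.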

How the results depend on the processing

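Of the values recomputed for single members under each alternative, 719 kept their direction and side of the threshold, 60 changed sign and 3, all of Col9a2, passed the threshold. Of the counts and class medians 266 stayed within the limits used and 47 moved. Settings also differ in the genes and libraries they use, and the cause of these changes was not tested. The 9 untested members did not pass the filter on low counts of the main fit, while DESeq2 and edgeR without a count filter fitted all 58. Intervals spanned more than 2-fold both for members with few counts in most libraries, such as Col5a3 and Col25a1, and for better counted ones, such as Lama1 (127 to 627 counts).

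Without a count filter 102 genes were higher and 34 lower past the threshold, 1 member was called (Col9a2, lower), 1 member was higher at an unadjusted p under 0.05, the FACIT median log2 fold change was -0.28, and Col5a1 was at 0.0034. DESeq2 called 223 genes higher and 59 lower, 1 member (Col9a2, lower), 1 basement membrane partner and 2 interstitial matrix partners, with a FACIT median of -0.28. Both of these FACIT medians include Col9a1 and Col19a1, which had few counts and were not tested in the main fit. They are therefore not over the same genes as the main median of -0.071. limma-voom left 1 member higher at an unadjusted p under 0.05, with Col23a1 at -0.0061 and Col6a2 at -0.010. Col23a1 was -0.0050 when genes needed 20 counts on average and, with Lamb2 at -0.0059, -0.013 under upper quartile normalization, which moved the median of all genes by under 0.1 (to -0.017). Without robust estimation 13 genes were higher. Without RBC 2 and Saline 4 together, 31 genes were higher and 9 lower, the FACIT median was -0.27, and the log2 fold changes of Col13a1, Col22a1, Col4a6 and Col5a1 were 0.13, 0.47, 0.21 and 0.072.

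Replicate numbers are shared by the groups, but same-numbered libraries did not deviate together (correlations of -0.008, -0.17 and -0.17), so they were not taken as pairs. With the number as a block, 2 genes were called higher and 0 lower over all genes, 0 members were called, and 1 was higher and 6 lower at an unadjusted p under 0.05. The log2 fold changes of Col1a1, Col22a1, Col23a1, Col4a2, Col5a1 and Nid1 were -0.037, 0.044, -0.012, -0.0089, 0.0015 and -0.011 with the block.

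With 1 library left out in turn, genes called ran from 0 to 226 higher and from 1 to 57 lower, and members called from 0 to 1 lower. The genes called higher numbered 15, 28 and 226 without RBC 1, RBC 2 and RBC 3, and 0, 0, 0 and 2 without Saline 1, Saline 2, Saline 3 and Saline 4. Members at an unadjusted p under 0.05 ran from 1 to 3 higher and from 3 to 12 lower. List members called ran from 0 to 2 for collagen processing, for basement membrane partners and for interstitial matrix partners and from 0 to 1 for receptors, above 0 without RBC 3 only. Class medians of the log2 fold change ran from -0.24 to -0.10 for FACIT collagens, -0.16 to 0.26 for fibrillar collagens, -0.33 to 0.39 for collagen VI, -0.26 to 0.15 for collagen IV and -0.077 to 0.26 for laminins. Log2 fold changes that changed sign ran as follows, in most cases through RBC 3: Col13a1 -0.15 to 0.19, Col14a1 -0.58 to 0.0045, Col16a1 -0.14 to 0.011, Col1a1 -0.26 to 0.30, Col1a2 -0.16 to 0.26, Col20a1 -0.11 to 0.019, Col22a1 -0.44 to 0.29, Col23a1 -0.10 to 0.063, Col25a1 -0.94 to 0.11, Col26a1 -0.049 to 0.22, Col3a1 -0.18 to 0.56, Col4a1 -0.085 to 0.23, Col4a2 -0.048 to 0.066, Col4a5 -0.030 to 0.24, Col4a6 -0.43 to 0.23, Col5a1 -0.039 to 0.062, Col5a2 -0.17 to 0.27, Col6a1 -0.38 to 0.53, Col6a2 -0.35 to 0.31, Col6a3 -0.31 to 0.46, Col7a1 -0.23 to 1.27, Col8a1 -0.11 to 0.037, Lama1 -0.17 to 1.06, Lama2 -0.20 to 0.45, Lama4 -0.14 to 0.38, Lama5 -0.15 to 0.084, Lamb1 -0.015 to 0.16, Lamb2 -0.073 to 0.082, Lamc3 -0.24 to 0.91 and Nid1 -0.19 to 0.17.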
